A study of Mus musculus with 24 samples.

Results

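The transcripts described here are those of 10 mouse genes of the epithelial-mesenchymal transition (EMT): the transcription factors Zeb1, Zeb2, Snai1, Snai2, Twist1 and Twist2, the cadherins Cdh1 and Cdh2, and the mesenchymal genes Vim and Fn1. They were chosen by gene symbol and were 10 of the 25229 genes in the count table. Of these, 9 were among the 12941 genes that passed the filter on low counts, and Twist1 did not. RNA was sequenced from ID8 Trp53−/− cells, a mouse ovarian cancer line in which p53 is knocked out, so that all groups share this genotype. For 6 days they received DMSO as the vehicle, AU-15330 at 2.5 μM, cisplatin at 750 nM, or both drugs at those concentrations, and each of the 4 groups held 6 libraries. AU-15330 belongs to the PROTACs and brings the SWI/SNF ATPases SMARCA4 and SMARCA2 to the protein degradation machinery, and cisplatin is a platinum drug that crosslinks DNA and that the study used to make cells senescent. The concentrations are those of the labels, and the study's methods name another cisplatin concentration for these cells. The labels do not say whether the 6 libraries of a group came from separate cultures, so the p-values measure the spread between these libraries, which may be technical.

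Libraries held from 17592588 to 25260009 counts on genes, and each of the 24 libraries was most similar to another library of its own treatment. Levels are given as CPM, counts relative to the library total after TMM scaling, and 3 counts in a library corresponded to 0.120 to 0.186 CPM, a floor that covers counting error only. Of 13 markers of ovarian surface epithelium and mesothelium in the table, 12 passed the filter, with Wt1 at 490 to 1090 CPM and Msln at 99.9 to 618 CPM over all libraries, while Aldh1a2 held at most 4 counts (4 of the markers are keratins that also stand in the list of epithelial junction and keratin genes). Their summed level ranged from 4400 to 6500 CPM with DMSO, 5410 to 6010 with cisplatin, 2010 to 2300 with AU-15330 and 2010 to 2250 with the combination. By the test described below, 9 of the 12 were lower and 1 higher with AU-15330 against DMSO (37.2% and 36.2% of all genes). With the combination against DMSO 11 were lower and 0 higher (36.5% and 36.8%), and with cisplatin 1 and 9 (25.7% and 26.0%). Upk3b (0.164 to 233 CPM), Upk1b (0.574 to 106 CPM) and Lrrn4 (0.0822 to 18.4 CPM) varied widely over the libraries. Of the 10 leukocyte markers 0 passed the filter, and Ptprc held at most 5 counts. Since AU-15330 acts on SMARCA4 and SMARCA2 as proteins, their transcripts do not check the labels.

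In the EMT, cells that adhere to their neighbours through E-cadherin lose these contacts and gain motility, a matrix rich in fibronectin and a cytoskeleton of vimentin. The zinc finger proteins of the SNAIL and ZEB families bind E-box sequences in the promoters of epithelial genes such as Cdh1 and recruit corepressors, and the TWIST proteins are basic helix-loop-helix factors that favour mesenchymal genes, N-cadherin among them. Cells of the ovarian surface carry epithelial and mesenchymal features together, and carcinomas of the ovary can show either cadherin.

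Snai1 and Twist2, factors of different families, both fell with AU-15330, and the 250 bases before their start sites are printed from RefSeq (GRCm38.p6, plus strand, chr2:167537945-167538194 for Snai1 and chr1:91801211-91801460 for Twist2). Capitals mark CACCTG, the E-box that SNAIL and ZEB proteins bind, which was searched as CAGGTG and as its reverse complement CACCTG.
Snai1: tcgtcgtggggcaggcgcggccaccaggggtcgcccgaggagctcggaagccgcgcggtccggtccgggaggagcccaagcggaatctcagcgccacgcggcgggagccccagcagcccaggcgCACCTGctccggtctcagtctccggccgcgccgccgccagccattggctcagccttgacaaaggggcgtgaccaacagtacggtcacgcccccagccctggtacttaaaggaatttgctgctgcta
Twist2: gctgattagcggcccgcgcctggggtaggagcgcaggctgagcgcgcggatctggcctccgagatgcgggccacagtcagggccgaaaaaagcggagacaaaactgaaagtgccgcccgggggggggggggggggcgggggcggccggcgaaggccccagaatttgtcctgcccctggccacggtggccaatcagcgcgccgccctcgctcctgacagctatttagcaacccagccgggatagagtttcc
The stretch before Snai1 held 1 such E-box, 126 bases before the start site, and the stretch before Twist2 held 0. Over 32851 upstream stretches of this length, 17.2% held the motif in either orientation, and a match is a description of letters, not of binding.

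Per kilobase of exon, taken from GENCODE M21 (GRCm38), Vim had the highest level in every group and Cdh1 the lowest of the 9 tested genes. With DMSO, the mean levels in CPM per kilobase were 556 for Vim, 133 for Fn1, 25.1 for Snai2, 13.9 for Cdh2, 7.06 for Zeb1, 5.01 for Twist2, 2.44 for Zeb2, 2.27 for Snai1 and 0.163 for Cdh1. Of the neighbours in this order, the ranges over libraries overlapped for Zeb1 and Twist2 and for Zeb2 and Snai1, and did not overlap for the others. With each of the other treatments Cdh2 stood above Snai2 on this scale, at 27.7 against 9.38 with AU-15330, 24.5 against 16.2 with cisplatin and 22.2 against 15.6 with the combination. N-cadherin transcripts exceeded E-cadherin transcripts per kilobase in every group. The ratio of the mean levels was 85 with DMSO, 34.3 with cisplatin, 203 with the combination and 840 with AU-15330, where 3 of the 6 libraries held 3 Cdh1 counts or fewer.

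**Figure D1:**
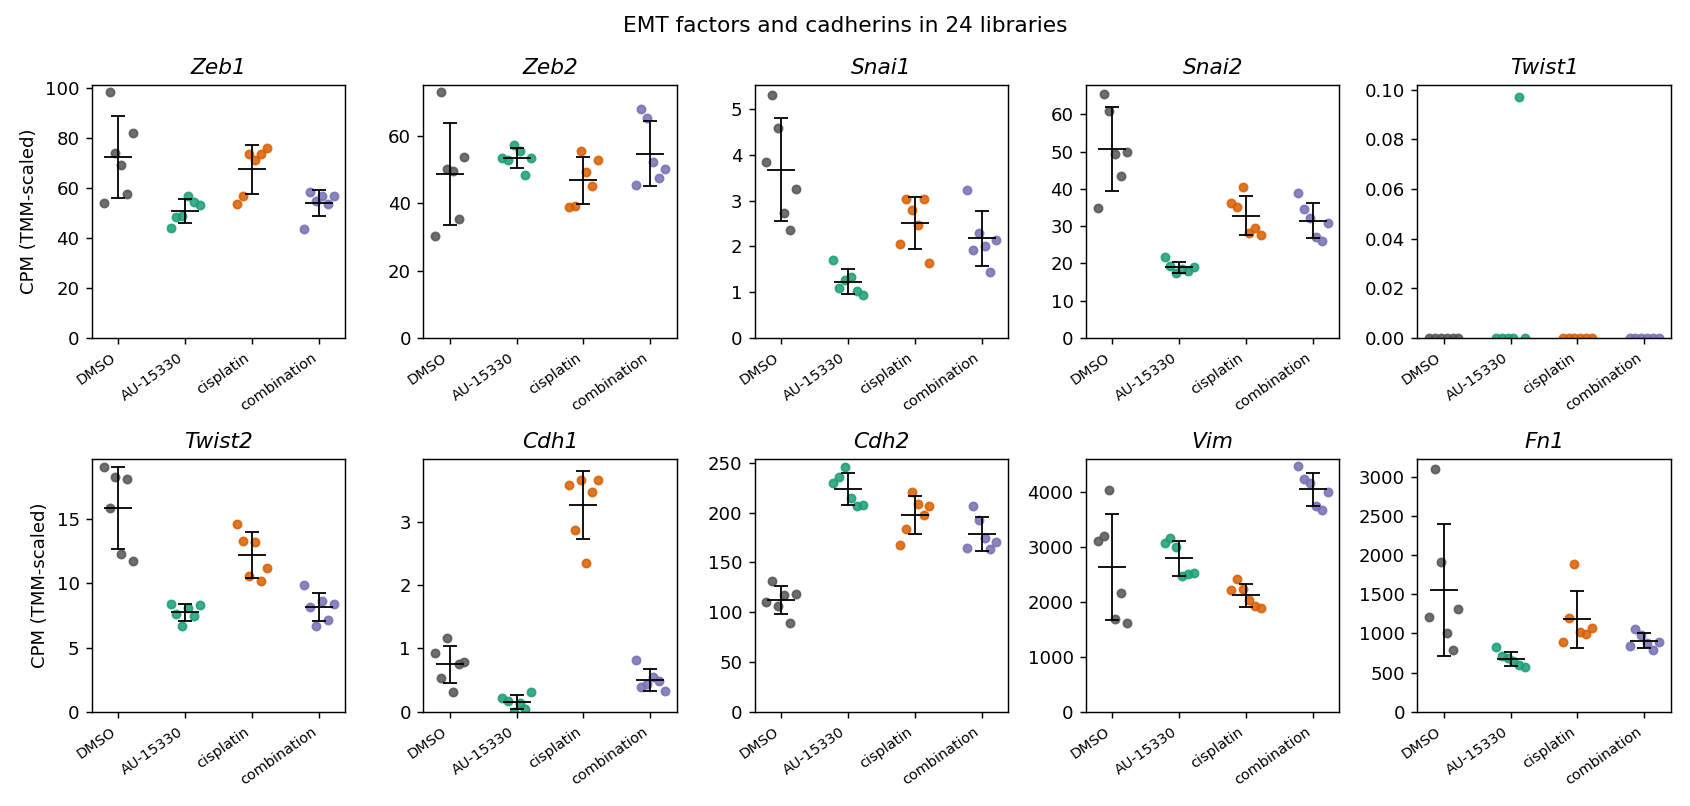
Level of each of the 10 genes in CPM after TMM scaling (y axis, from 0, a separate scale per gene) in the 24 libraries, grouped by treatment (x axis), with replicates 1 to 6 from left to right as points and the mean ± SD as bars (points only for Twist1). Cdh1 is highest with cisplatin, at 2.36 to 3.67 CPM, and Cdh2 is lowest with DMSO, at 88.9 to 131 CPM.

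Against DMSO, cisplatin was followed by higher levels of both cadherins and lower levels of 3 of the factors, AU-15330 by lower levels of 4 factors, Cdh1 and Fn1 and a higher level of Cdh2. A gene counted as called when its adjusted p-value from edgeR's quasi-likelihood test (Benjamini-Hochberg, over all 12941 genes) was under 0.05. Cisplatin changed 5 of the 9 tested genes, beside 51.7% of all genes called in that comparison, with 2 upward (26.0% of all genes) and 3 downward (25.7%). AU-15330 changed 7 of 9, beside 73.4% of all genes, with 1 upward (36.2%) and 6 downward (37.2%). The combination differed from cisplatin alone in 4 of 9, beside 68.1%, with 1 upward (35.4%) and 3 downward (32.7%). It differed from AU-15330 alone in 5 of 9, beside 41.7%, with 4 upward (22.2%) and 1 downward (19.5%). Against DMSO the combination differed in 7 of 9, beside 73.3%, with 2 upward (36.8%) and 5 downward (36.5%). The totals lie near the shares over all genes, or below for the combination against cisplatin, and by direction the 6 falls with AU-15330, the 5 falls of the combination against DMSO and the 4 increases of the combination against AU-15330 exceed them, over only 9 genes. The counts with AU-15330 against DMSO and with the combination against AU-15330 include Cdh1, which passed the filter on low counts only when libraries of other groups were in the fit. The comparisons share control libraries and are not independent of each other. The groups did not overlap for 2 of 9 genes with cisplatin against DMSO (24% of all genes), 5 with AU-15330 against DMSO (49.9%), 3 with the combination against cisplatin (50.2%), 3 against AU-15330 (29.6%) and 2 against DMSO (49.5%).

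**Figure D2:**
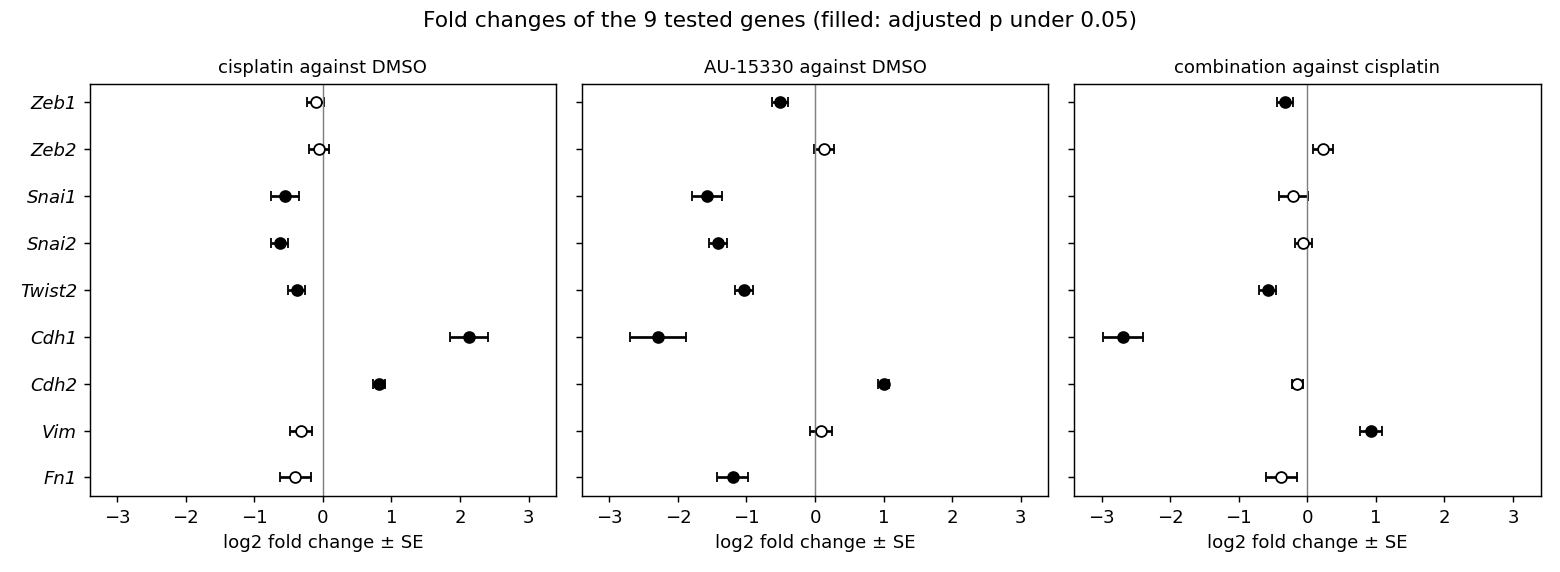
Log2 fold change ± SE (x axis) of the 9 tested genes (y axis) in 3 comparisons, from 1 fit of the 24 libraries, with filled points for adjusted p-values under 0.05. Cdh1 lies to the right with cisplatin (2.13) and to the left when AU-15330 is added to DMSO (-2.29) or to cisplatin (-2.69).

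Snai1 encodes SNAIL, a zinc finger repressor of Cdh1 that is held at low levels by rapid degradation of its protein. Its level was 2.37, 3.54 and 5.31 CPM (lowest, median and highest library) with DMSO and 0.939, 1.19 and 1.71 CPM with AU-15330. Every library with AU-15330 lay below every DMSO library, and the change was -1.57 ± 0.22 on the log2 scale (± SE, adjusted p = 5.62e-07). With cisplatin the values were 1.65, 2.64 and 3.05 CPM, which overlapped those of DMSO at a change of -0.55 ± 0.21 (adjusted p = 0.0280). That call was lost without DMSO replicate 2 (-0.40, adjusted p = 0.116), and likewise without DMSO replicates 1 or 3 or cisplatin replicates 1 or 6. DMSO replicates 1 to 3 lay at 3.84 to 5.31 CPM and replicates 4 to 6 at 2.37 to 3.25 CPM, and within replicates 4 to 6 the change with cisplatin was -0.24 (adjusted p = 0.399). The combination gave 1.44, 2.07 and 3.24 CPM, which overlapped both single drugs, lay 0.82 ± 0.23 above AU-15330 on the log2 scale (adjusted p = 0.00532), and was not called against cisplatin (-0.20 ± 0.21). The call against AU-15330 was lost with lane 1 only (0.62, adjusted p = 0.0643) and within replicates 4 to 6 (0.72, adjusted p = 0.0516). The mean level of SNAIL transcripts was lowest with AU-15330 alone. The gene lies at chr2:167538195-167542814 on the plus strand.

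Snai2 encodes SLUG, a repressor of the SNAIL family, and its pattern over treatments resembled that of Snai1. It lies at chr16:14705852-14709385 on the plus strand. Levels were 34.9, 49.7 and 65.5 CPM with DMSO and 17.5, 18.7 and 21.7 CPM with AU-15330. The groups did not overlap, and the change was -1.42 ± 0.13 (adjusted p = 2.57e-10). With cisplatin the level was 27.6, 32.3 and 40.6 CPM, lower in 5 of 6 same-numbered pairs (-0.63 ± 0.13, adjusted p = 0.000181). The combination, at 25.9, 31.4 and 38.8 CPM, lay wholly above AU-15330 (0.73 ± 0.13, adjusted p = 5.9e-05) and overlapped cisplatin (-0.06 ± 0.13, adjusted p = 0.695). Across the 24 libraries the log2 levels of Snai1 and Snai2 had a Pearson correlation of 0.893, and of 0.564 after the group means were removed, a description over libraries that share treatments.

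Twist2 encodes a helix-loop-helix factor of connective tissue and bone precursors that has been linked to EMT, at chr1:91801461-91848028 on the plus strand. It was measured at 11.8, 17 and 19 CPM with DMSO, at 6.70, 7.84 and 8.42 CPM with AU-15330, at 10.2, 12.2 and 14.6 CPM with cisplatin, and at 6.71, 8.29 and 9.86 CPM with the combination. Both groups with AU-15330 lay below both groups without it, library by library. AU-15330 lowered the level by 1.03 ± 0.13 on the log2 scale without cisplatin (adjusted p = 5.22e-08), and the combination lay below cisplatin with a change of -0.58 ± 0.13 (adjusted p = 0.000233). The change with cisplatin alone was -0.38 ± 0.12 (adjusted p = 0.0119), and this call was lost without DMSO replicate 1 (-0.30) or DMSO replicate 3 (-0.31). Its paralog Twist1, on chromosome 12, held 0 counts in 23 of the 24 libraries and 2 counts in AU-15330 replicate 5, below the floor of 3 counts, so no fold change was formed.

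Zeb1 and Zeb2 encode large repressors with zinc fingers at both ends, which silence Cdh1 and epithelial microRNAs. Zeb1 was measured at 54.1, 71.4 and 98.4 CPM with DMSO, 43.8, 51.0 and 56.7 CPM with AU-15330, 53.7, 72.3 and 75.8 CPM with cisplatin and 43.6, 55.7 and 58.2 CPM with the combination. Its groups overlapped in every comparison. It fell with AU-15330 (-0.51 ± 0.12, adjusted p = 0.000406) and was lower with the combination than with cisplatin (-0.32 ± 0.12, adjusted p = 0.0185), and the latter call was lost without combination replicate 1 (-0.27, adjusted p = 0.0515). Whether these effects differed was tested as the interaction, which was not called (0.19 ± 0.17). Cisplatin alone left no call for Zeb1 (-0.11 ± 0.12, adjusted p = 0.471).

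Zeb2, at chr2:44983632-45117395 on the minus strand, ranged from 30.2 to 72.9 CPM over the DMSO libraries, with a median of 49.8 CPM, and its medians were 53.4 CPM with AU-15330, 47.2 CPM with cisplatin and 51.1 CPM with the combination. It was called in 0 of the 6 tests, with changes of -0.06 ± 0.15 with cisplatin, 0.13 ± 0.15 with AU-15330 and 0.23 ± 0.15 with the combination against cisplatin, and 0 of the 6 had an unadjusted p-value under 0.05. DESeq2 also called it in 0. The wide DMSO spread rested partly on replicate 2, at 72.9 CPM, and without it the increase with AU-15330 (0.29) reached an adjusted p-value of 0.0472, and the combination against DMSO went from 0.17 to 0.33 (adjusted p = 0.0289). Differences between the group means held 13.9% of the variance of its log2 level, the lowest share of the 9 genes. The share was 51.1% for Zeb1, 72.4% for Snai1, 84.2% for Snai2 and 81.4% for Twist2. Such a share is positive even where treatment has no effect, and that baseline was not computed. The antisense transcript Zeb2os, whose exons overlap those of Zeb2 on the other strand, rose with AU-15330 from a mean of 2.24 to 4.69 CPM (1.07 ± 0.16, adjusted p = 8.59e-07). The setting for strand in the counting is not given in the sources used here, so reads of the pair may not have been told apart. The same limit holds for Zeb1, Fn1 and Twist2, whose exons overlap those of Gm10125, Apol7d and Gm29100 on the other strand. Gm29100 is not in the count table.

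Cdh1 encodes E-cadherin, the adhesion molecule of epithelial junctions and a target of the repressors above, and its level was low in all groups. The gene lies at chr8:106603351-106670246 on the plus strand. The DMSO libraries held 0.314, 0.772 and 1.16 CPM (lowest, median and highest), and the cisplatin libraries 2.36, 3.53 and 3.67 CPM. Every cisplatin library lay above every DMSO library, an increase of 2.13 ± 0.28 on the log2 scale or 4.39-fold (adjusted p = 4.84e-07). With AU-15330 the level was 0, 0.160 and 0.313 CPM, counts of 0 to 6 reads per library, and the change from DMSO was -2.29 ± 0.41 (adjusted p = 1.67e-05). The combination held 0.325, 0.455 and 0.822 CPM, wholly below cisplatin (-2.69 ± 0.29, adjusted p = 6.3e-09) and wholly above AU-15330 (1.73 ± 0.43, adjusted p = 0.0019). Within replicates 4 to 6 the call of the combination against AU-15330 was lost (1.39, adjusted p = 0.082). When only the 2 groups compared were fitted, Cdh1 did not pass the filter on low counts for AU-15330 against DMSO or for the combination against AU-15330, so both of these tests rest on the fit of all 4 groups. Against DMSO, the combination overlapped and was not called (-0.56 ± 0.33, adjusted p = 0.132), although it was without DMSO replicate 4 (-0.73, adjusted p = 0.0429) or combination replicate 1 (-0.76, adjusted p = 0.0493). The only library with 0 Cdh1 counts was AU-15330 replicate 3, where a count of 0 allows a level of up to 0.123 CPM, and the size of the fold changes against AU-15330 is correspondingly uncertain.

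Cdh2 encodes N-cadherin, the cadherin of mesenchymal and neural cells. It was measured at 88.9, 113 and 131 CPM with DMSO, 168, 202 and 221 CPM with cisplatin, 207, 223 and 246 CPM with AU-15330 and 164, 173 and 207 CPM with the combination. The DMSO libraries lay below those of every other group. Against DMSO, Cdh2 rose by 0.82 ± 0.084 on the log2 scale with cisplatin (adjusted p = 9.85e-09), by 1.00 ± 0.085 with AU-15330 (adjusted p = 5.5e-11) and by 0.68 ± 0.084 with the combination (adjusted p = 7.05e-08). The combination lay below AU-15330 alone (-0.32 ± 0.084, adjusted p = 0.00304) and was not called against cisplatin (-0.14 ± 0.084, adjusted p = 0.131), a difference that was called within replicates 4 to 6 (-0.30, adjusted p = 0.00391), without cisplatin replicate 1 (-0.19, adjusted p = 0.0469), and without replicate 1 (-0.20, adjusted p = 0.0385) or replicate 2 (-0.21, adjusted p = 0.0347) of every group. With cisplatin both cadherins thus rose, whereas with AU-15330 they moved in opposite directions.

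Vim encodes vimentin, the intermediate filament of mesenchymal cells, at chr2:13573927-13582826 on the plus strand. It was measured at 1619, 2637 and 4039 CPM with DMSO, 1894, 2122 and 2424 CPM with cisplatin, 2478, 2758 and 3165 CPM with AU-15330 and 3681, 4086 and 4465 CPM with the combination. The combination lay wholly above each single drug, at 0.93 ± 0.16 against cisplatin (adjusted p = 1.21e-05) and 0.54 ± 0.16 against AU-15330 (adjusted p = 0.00837) on the log2 scale. Against DMSO the combination was higher by 0.62 ± 0.16 (adjusted p = 0.00113), while AU-15330 (0.08 ± 0.16, adjusted p = 0.647) and cisplatin (-0.31 ± 0.16, adjusted p = 0.103) were not called. Replicates 1 to 3 lay wholly above replicates 4 to 6 in all 4 groups. They were at 3120 to 4040 against 1620 to 2160 CPM with DMSO, 2990 to 3170 against 2480 to 2520 CPM with AU-15330, 2210 to 2420 against 1890 to 2030 CPM with cisplatin, and 4170 to 4460 against 3680 to 4000 CPM with the combination, so that the gap was widest with DMSO. Within replicates 1 to 3 the change with AU-15330 was -0.17 and with cisplatin -0.59 (adjusted p = 0.00175). Within replicates 4 to 6 these were 0.45 (adjusted p = 0.000874) and 0.08, and the call with cisplatin also appeared without DMSO replicate 4 (-0.42, adjusted p = 0.023) or replicate 6 (-0.42, adjusted p = 0.0177). The combination against DMSO was 0.28 (adjusted p = 0.0522) within replicates 1 to 3 and 1.02 within replicates 4 to 6. Replicates 1 to 3 also lay wholly above 4 to 6 for Snai2 with cisplatin (35.1 to 40.6 against 27.5 to 29.5 CPM) and with the combination (32 to 38.8 against 25.9 to 30.7). With AU-15330 they did so for Fn1 (693 to 826 against 573 to 650 CPM) and Cdh2 (230 to 246 against 206 to 215). Zeb1 with AU-15330 went the other way (43.8 to 48.9 against 53.2 to 56.7 CPM). The labels name no batch for the replicate numbers, and the part of any batch was not tested.

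Fn1 encodes fibronectin, an extracellular matrix protein, at chr1:71585520-71653200 on the minus strand. It was measured at 794.7, 1260 and 3106 CPM with DMSO, 573, 672 and 826 CPM with AU-15330, 891, 1049 and 1893 CPM with cisplatin and 794, 886 and 1059 CPM with the combination. DMSO replicate 2 was the highest library and cisplatin replicate 3 the highest of its group. All pairs of groups overlapped except AU-15330 and cisplatin. Fn1 fell with AU-15330 (-1.20 ± 0.23, adjusted p = 4.34e-05) and was lower with the combination than with DMSO (-0.78 ± 0.23, adjusted p = 0.00355), a difference that stayed called but shrank to -0.45 without DMSO replicate 2. Cisplatin was not called (-0.40 ± 0.23, adjusted p = 0.144), but was without DMSO replicate 5 (-0.54, adjusted p = 0.0381) or cisplatin replicate 3 (-0.59, adjusted p = 0.0297), and the change was -0.062 without DMSO replicate 2. The combination against cisplatin (-0.38 ± 0.23, adjusted p = 0.143) was called in 3 of 42 alternative fits. These were without DMSO replicate 2 (-0.39, adjusted p = 0.0465), with only the 2 groups fitted (-0.40, adjusted p = 0.022) and within replicates 4 to 6 (-0.30, adjusted p = 0.0392). Against AU-15330 the combination was not called (0.42 ± 0.23, adjusted p = 0.138). It was with only the 2 groups fitted (0.43, adjusted p = 0.000828) and within replicates 4 to 6 (0.46, adjusted p = 0.00701).

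The effect of AU-15330 without cisplatin was then set against its effect with cisplatin, by the interaction term of the same fit. The effects differed for 6 of the 9 genes, beside 33.7% of all genes called, with 5 upward (17.9%) and 1 downward (15.8%). The total and the upward count lay above these shares, over only 9 genes, and the downward count did not. Both counts above the shares include Twist2 and Fn1, just inside the threshold, which DESeq2 did not call beside 36.9% of all genes. For Snai1 and Snai2 the fall with AU-15330 was smaller with cisplatin, and the log2 effects differed by 1.37 ± 0.31 (adjusted p = 0.00121) and 1.36 ± 0.18 (adjusted p = 2.52e-06). Cdh2 rose with AU-15330 alone and was not called when it was added to cisplatin (difference -1.14 ± 0.12, adjusted p = 5.02e-08). For Vim the difference was 0.85 ± 0.23 (adjusted p = 0.00483), from an effect near 0 to an increase. Within replicates 4 to 6 the difference of Snai1 was 0.96 (adjusted p = 0.0505). Each of the differences of Snai1, Snai2, Cdh2, Vim and Fn1 had 1 sign in 6 of 6 same-numbered sets of libraries. The numbers met the criterion for pairing, given below, only for the combination against AU-15330, so these sets serve as a description. The differences of Twist2 (0.46 ± 0.18, adjusted p = 0.0495) and Fn1 (0.83 ± 0.32, adjusted p = 0.0489) were called in 9 and 10 of 41 alternative fits, and DESeq2 did not call them (adjusted p = 0.0599 and 0.0904). Without DMSO replicate 2 the difference of Fn1 was 0.49 (adjusted p = 0.136). Cdh1 (-0.40 ± 0.59), Zeb1 (0.19 ± 0.17) and Zeb2 (0.09 ± 0.21) were not called.

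**Figure D3:**
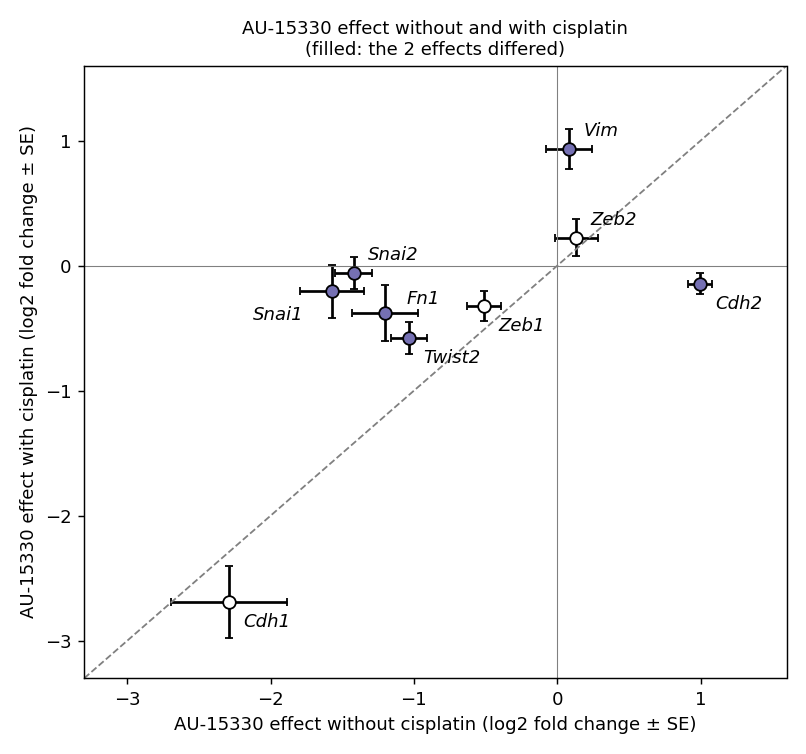
Log2 fold change ± SE of AU-15330 against DMSO (x axis) and of the combination against cisplatin (y axis) for the 9 tested genes, with the line of equal effects dashed and filled points where the interaction had an adjusted p-value under 0.05. Snai1, Snai2, Fn1, Twist2 and Vim lie above the line and Cdh2 (1.00, -0.14) below it, while Cdh1 (-2.29, -2.69) lies near it.

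Among genes that mark the epithelial state, the largest change was the loss of Krt19 with AU-15330. Of 41 junction and keratin genes, 24 were tested, of which 12 rose and 2 fell with cisplatin (median log2 change 0.43), 7 rose and 12 fell with AU-15330 (-0.35), and 5 rose and 15 fell with the combination against cisplatin (-0.98). Over all genes the medians were -0.004, -0.003 and 0.039, and the shares called were 26.0% higher and 25.7% lower with cisplatin, 36.2% and 37.2% with AU-15330, and 35.4% and 32.7% with the combination against cisplatin. The counts of each list below stand beside these shares. Krt19, a keratin of simple epithelia, had mean levels of 1783 CPM with DMSO and 7 CPM with AU-15330 (-7.99), and it changed by -6.54 when AU-15330 was added to cisplatin. Krt7 rose with cisplatin (1.89), from 9 to 45 counts per library with DMSO to 96 to 125. It was called lower in both comparisons with AU-15330, where its counts of 0 to 2 with AU-15330 and 0 to 5 with the combination lay mostly under the floor, so no fold change is given. Genes of the list that rose were the mucin Muc1 (1.83 with cisplatin, 1.495 with AU-15330), the tight junction scaffold Patj (1.504 with AU-15330, 0.73 with the combination against cisplatin) and the desmosomal gene Pkp2 (0.70 with the combination against cisplatin). F11r (-0.34) and Pkp1 (-0.64), which encode junction proteins, fell with cisplatin.

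The transcription and splicing factors of epithelial cells, 9 tested of 16, gave 3 higher and 2 lower with cisplatin, 1 and 5 with AU-15330, and 1 and 6 with the combination against cisplatin. The totals lay near or below the shares of all genes called (51.7%, 73.4% and 68.1%) with either drug and slightly above with the combination, and the falls with AU-15330 and with the combination lay above the shares of falls, over only 9 genes. One of them, Esrp1, named after its values were seen, held 12 to 24 counts per library with cisplatin. It held at most 3 with DMSO, 1 with AU-15330 and 2 with the combination. It passed the filter through the cisplatin libraries, so its changes to and from cisplatin are not independent of the filter. Elf3, an ETS factor of epithelia, changed by -6.82 with AU-15330, to 2 to 10 counts per library, and -6.11 with the combination against cisplatin, and Klf5, a Krüppel-like factor, by -2.66 and -2.32. The splicing regulator Esrp2 went the other way in both (0.38 and 1.24) and fell with cisplatin (-0.76). Foxa1 also fell with cisplatin (-0.40), where Grhl1 (0.44) and Grhl2 (0.51), activators of junction genes, rose.

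Of the catenins and other cadherin partners, 15 were tested of 18, of which 9 rose and 3 fell with cisplatin, 3 rose and 7 fell with AU-15330, and 2 rose and 8 fell with the combination against cisplatin. Beside 51.7%, 73.4% and 68.1% of all genes called, the total was above the share with cisplatin, through the genes that rose, and near or below it in the other comparisons. Jup, the gene of plakoglobin, followed the direction of Cdh1 in the 3 comparisons (0.64, -1.04 and -1.57). Nectin1, which encodes an adhesion molecule of adherens junctions, rose with cisplatin (1.67) and with AU-15330 (0.69), and the catenin-related Arvcf rose with AU-15330 (0.80) and with the combination against cisplatin (0.37). Ctnnal1 fell with both drugs (-0.96 with cisplatin, -1.66 with AU-15330), Lima1 with cisplatin (-0.22) and Pkp4 with the combination against cisplatin (-0.77). Of 20 other cadherins 4 were tested, of which 2 rose and 0 fell with cisplatin, 1 rose and 1 fell with AU-15330, and 0 rose and 2 fell with the combination against cisplatin, too few to set against the shares over all genes. Cdh24, a type II cadherin, rose with cisplatin (0.98) and with AU-15330 (0.92). The others, named after their values were seen, were Cdh22, which rose with cisplatin (2.94) from 2 to 14 counts per library with DMSO to 44 to 69 and was lower with the combination than with cisplatin (-1.85), and Cdh3, the gene of P-cadherin. Whether Cdh22 would pass the filter on low counts without the cisplatin libraries, where it was high, was not tested. Cdh3 was called lower with AU-15330 and with the combination against cisplatin, but it held only 0 to 3 counts per library with AU-15330 and 0 to 6 with the combination, beside 4 to 14 with DMSO and 3 to 18 with cisplatin, so no fold change is given.

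Mesenchymal genes other than Vim and Fn1 mostly fell with AU-15330. Of 30 tested of 38, 6 rose and 23 fell with AU-15330 (median -1.76), 3 rose and 22 fell with the combination against cisplatin (-1.11), and 10 rose and 4 fell with cisplatin (0.27), beside shares over all genes with AU-15330 of 36.2% higher and 37.2% lower. S100a4, a calcium-binding protein used as a mesenchymal marker, changed by -6.04 and -5.25 with AU-15330 without and with cisplatin, and Mylk, the myosin light chain kinase, by -5.99 without it. The microfibril gene Fbn1 rose with cisplatin (1.97) and was lower with the combination than with cisplatin (-4.13). Vcan (2.07 and 0.95) and Col3a1 (1.44 and 0.79), which encode matrix components, rose in both comparisons with AU-15330. With cisplatin, Nes (1.48), the gene of the filament protein nestin, rose, and Ddr2 (-1.54), a collagen receptor, and Lox (-1.10), a collagen crosslinking enzyme, fell. The fibroblast markers, of which 6 of 10 are also in this mesenchymal list, had 5 tested genes and a summed level of 227 to 641 CPM with DMSO, 111 to 174 with AU-15330, 366 to 450 with cisplatin and 195 to 295 with the combination, with 4 higher and 1 lower with either drug against DMSO, and Pdgfrb, Col1a2, Thy1, Acta2 and Pi16 held at most 10 counts. Their part in the changes of Vim and Fn1 was not tested.

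**Figure D4:**
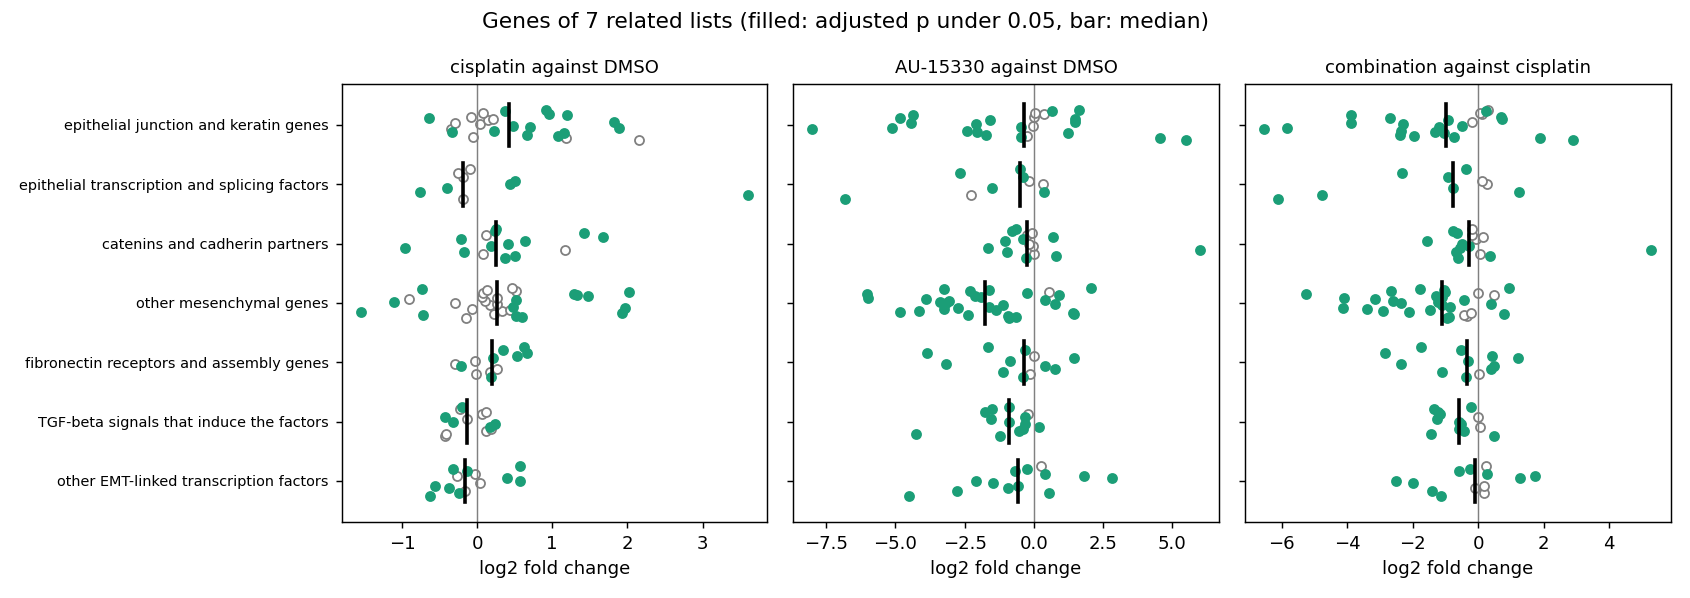
Log2 fold changes (x axis, a separate scale per panel) of the tested genes of 7 related lists (y axis) in 3 comparisons, with a point per gene, filled where the adjusted p-value was under 0.05, and a bar at the list's median. With AU-15330 the median of the other mesenchymal genes lies at -1.76 and that of the epithelial junction and keratin genes at -0.35.

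The receptors and assembly factors of fibronectin, 12 tested of 15, gave 6 higher and 1 lower with cisplatin, 3 and 7 with AU-15330 and 4 and 7 with the combination against cisplatin. The integrin gene Itgb3 (-3.17 and -2.35) and the transglutaminase gene Tgm2 (-3.87 and -2.84) fell with AU-15330 without and with cisplatin, and the syndecan gene Sdc2 rose (1.43 and 1.21). Itgav, an integrin chain that pairs with Itgb3, rose with AU-15330 (0.76), and Itgb1 rose with the combination against cisplatin (0.48) and fell with cisplatin (-0.22). With cisplatin Tgm2 (0.67) and Tns1 (0.62), which encodes an adhesion adaptor, rose.

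TGF-beta signalling induces SNAIL and ZEB factors in many epithelia, and of its genes 13 were tested of 15. With AU-15330 1 rose and 11 fell (median -0.88), with the combination against cisplatin 1 rose and 10 fell (-0.59), and with cisplatin 2 rose and 3 fell (-0.13). The ligand Tgfb3 changed by -1.75 with AU-15330 and the receptor Tgfbr1 by -1.34 with the combination against cisplatin. The genes that rose were Smad2 with AU-15330 (0.18) and Ltbp1 with the combination against cisplatin (0.49). With cisplatin the ligand Tgfb1 (-0.42) and the signal carrier Smad4 (-0.33) fell, and Smad2 (0.17) and Smad3 (0.23) rose.

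Of 20 other transcription factors linked to EMT, 13 were tested, of which 4 rose and 8 fell with AU-15330, 3 rose and 6 fell with cisplatin, and 3 rose and 6 fell with the combination against cisplatin. Fosl1, an AP-1 subunit (-4.52), and Hmga2, a chromatin protein (-2.77), fell with AU-15330, and the T-box genes Tbx2 (2.81) and Tbx3 (1.82) rose. The T-box genes were also higher with the combination than with cisplatin (1.28 and 1.73), whereas Sox4 (-1.99) and Sox9 (-2.52) were lower. With cisplatin Sox9 (0.57) and Tead1 (0.57) rose, and Fosl1 (-0.63) fell. The corepressors and other partners of SNAIL and ZEB proteins, 12 of 12 tested, gave 6 higher and 4 lower with AU-15330, 5 and 2 with cisplatin and 6 and 5 with the combination against cisplatin. Beside 73.4%, 51.7% and 68.1% of all genes called, the first 2 totals lay near the share and the last above it, in both directions. The deacetylase gene Hdac1 rose with AU-15330 (1.12) and with the combination against cisplatin (0.69), as did the kinase gene Lats2 (1.21 and 0.61), while the LIM protein gene Ajuba fell (-0.76 and -0.73). Ctbp2 fell with AU-15330 (-0.47) and with cisplatin (-0.23), Kdm1a fell with the combination against cisplatin (-0.32), and with cisplatin Ezh2 (0.67) and Ajuba (0.60) rose and Rcor1 (-0.25) fell.

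Of 14 genes that act on the stability or activity of these factors, 13 were tested, of which 0 rose and 9 fell with cisplatin, 2 rose and 7 fell with AU-15330, and 2 rose and 4 fell with the combination against cisplatin. Among those named by the rule, the largest changes were in the Id genes, whose products lack a DNA-binding region and sequester helix-loop-helix factors rather than degrade them. Id1 changed by -3.54 with AU-15330 and -1.01 with the combination against cisplatin, and Id3 by -2.95 and -0.56, with -1.63 under cisplatin. Id2 fell with cisplatin (-1.47) and was higher with the combination than with cisplatin (2.38). Btrc, the ubiquitin ligase subunit that recognises SNAIL, rose with AU-15330 (0.88) and with the combination against cisplatin (0.64), and Gsk3b, the kinase that marks SNAIL for it, rose with AU-15330 (0.34).

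The genes whose log2 levels followed members most closely over the 24 libraries were, by Pearson correlation, Ubxn7 for Zeb1 (0.956), Lats1 for Zeb2 (0.915), Col1a1 for Snai1 (0.921), Prkg2 for Snai2 (0.957), Rnf166 for Twist2 (0.951), Lgals9 for Cdh1 (0.952), Cyp1b1 for Cdh2 (0.950) and Stn1 for Vim (0.931). Grsf1 was among the 3 nearest genes of both Snai1 (0.904) and Snai2 (0.936). These are the highest correlations among all genes tested with a mean of at least 1 CPM, over libraries that share treatments, and serve as a description. Between members, Zeb1 and Zeb2 correlated at 0.281 over the libraries and at 0.829 after the group means were removed, and Cdh1 and Cdh2 at -0.169 and -0.318.

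The summed level of 10 proliferation markers, Mki67 and Top2a among them, ranged from 299 to 472 CPM with DMSO, 634 to 1190 with AU-15330, 1500 to 2020 with cisplatin and 2220 to 2630 with the combination, with 10 of 10 called higher in each treatment against DMSO. These markers moved with the groups in which the EMT genes changed, and their part in those changes was not tested. The study reports reduced proliferation of these cells with cisplatin, at another concentration, whereas here the markers were higher with cisplatin. Whether the cells of these libraries were senescent was not tested. The endothelial markers, 2 of 8 tested, summed to 43.9 to 56.0 CPM with DMSO and 20.4 to 26.9 CPM with AU-15330. The sum was 38.5 to 50.2 CPM with cisplatin and 15.9 to 19.7 CPM with the combination. The 2 tested were Esam, at 15.4 to 52.6 CPM over all libraries, and Pecam1, at 0.261 to 12.4 CPM. Emcn held 0 counts in every library and Kdr at most 1. In bulk RNA, fewer cells with a transcript and less transcript per cell cannot be told apart.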

How the data were processed

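The authors aligned the reads with STAR 2.7.1a to mm10, per the submitters' processing notes, which also name DESeq2 1.36.0, and deposited raw read counts per gene and sequencing lane. The counting tool, its annotation and its use of strand are not given in the sources used here. Libraries were polyadenylated RNA prepared with a kit that keeps strand. The 2 lanes of each library were summed, and 0 columns could not be matched to a library.

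Counts of 24 libraries were fitted with edgeR 4.0.16 (R 4.3.3): TMM scaling, filterByExpr (12941 of 25229 genes kept), group means, the quasi-likelihood F test (20 degrees of freedom left for the spread) and Benjamini-Hochberg adjustment over all genes tested, with a threshold of 0.05. Log2 CPM used a prior count of 2. The procedure was tested on simulated data. The 6 comparisons were cisplatin, AU-15330 and the combination against DMSO, the combination against each drug, and the interaction. DESeq2 1.42.0, other scalings and filters, a fold of 1.5, single lanes, replicates 1 to 3 or 4 to 6 alone and left-out libraries served as alternatives.

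The members and lists were chosen with earlier results of these data known. All 10 members are named. From each related list, the rule named up to 2 increases and 2 decreases, the largest among called genes with a mean of at least 1 CPM, in each of 3 comparisons, and for each member the 3 genes of highest correlation, of which the first is mostly given. A few genes that the rule names are not reported here. Genes of marker lists are named as defining markers. Zeb2os was named after its values were seen. Pairs are same-numbered libraries. The numbers met the criterion for pairing, a correlation of deviations above 0.1 in every pair, only for the combination against AU-15330 (0.101 to 0.483 over 6 pairs).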

Additional observations from a re-analysis of the deposited data

Results flagged for a closer look

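Of 37 sets of 6 libraries searched for a distant library, 3 held one, with a gap to the nearest library, as a share of the range, above Dixon's critical value for 6 values. Chance flags about 1 in 20 sets. Zeb1 was low in combination replicate 1 (43.6 CPM against 53.4 in the nearest library, a gap of 0.671 of the range). Fn1 was high in cisplatin replicate 3 (1890 against 1190 CPM, 0.698 of the range). Twist1 held its 2 counts in AU-15330 replicate 5 (0.0971 against 0 CPM, a gap of 1 times the range), below the floor of 3 counts.

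The effect of AU-15330 with cisplatin differed from its effect without cisplatin for Snai1 (1.37 on the log2 scale), Snai2 (1.36), Vim (0.85), Fn1 (0.83), Twist2 (0.46) and Cdh2 (-1.14). The values of Twist2 and Fn1 lay just inside the threshold, as given with the interaction above.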

How the results depend on the processing

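Over 2257 recomputed values of the members, 2102 kept their direction and side of the threshold, 107 lost and 19 gained a call, and 29 changed sign, of which 0 had been called. With a test for changes above 1.5-fold, the members called were 2 with cisplatin, 6 with AU-15330, 2 with the combination against cisplatin, 1 against AU-15330, 1 against DMSO and 3 for the interaction, beside 13.8%, 36%, 29.4%, 6.51%, 36.2% and 7.16% of all genes. With replicates 4 to 6 only, 3 were called with cisplatin, beside 52.9% of all genes. With replicates 1 to 3 only, the members called with cisplatin kept their calls and Vim gained one, beside 33.5% of all genes. Leaving out libraries gave 3 to 6 calls with cisplatin, 7 to 8 with AU-15330, 3 to 5, 5 to 5 and 7 to 8 with the combination against cisplatin, AU-15330 and DMSO, and 4 to 6 for the interaction. The shares of all genes called were then 45.0% to 52.7%, 69.4% to 74.8%, 63.4% to 69.6%, 34.7% to 43.9%, 69.1% to 74.5% and 25.2% to 36.3%. The count with cisplatin was 3 without DMSO replicate 1, without DMSO replicate 3, or without replicate number 3 in every group.

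Signs changed with total counts in place of TMM for Zeb2 with cisplatin (0.018) and Snai2 with the combination against cisplatin (0.004), and without a filter for Zeb2 with the combination against AU-15330 (-0.005). With replicates 1 to 3 only they changed for Vim with AU-15330 (-0.168) and the interaction of Cdh1 (0.062). With replicates 4 to 6 only they changed for Zeb1 (0.068), Zeb2 (0.077) and Vim (0.082) with cisplatin, Zeb2 with the combination against cisplatin (-0.006), Zeb1 (-0.008), Zeb2 (-0.103) and Twist2 (-0.003) against AU-15330, and the interactions of Zeb1 (-0.076) and Zeb2 (-0.18). Leaving out libraries gave -0.193 to 0.046 for Zeb1 and -0.142 to 0.14 for Zeb2 with cisplatin, -0.027 to 0.252 for Vim with AU-15330, -0.138 to 0.007 for Snai2 with the combination against cisplatin, -0.042 to 0.079 for Zeb2 against AU-15330, and -0.182 to 0.174 and -0.816 to 0.013 for the interactions of Zeb2 and Cdh1. The causes were not tested. With the replicate number as a block, 5, 7, 4, 5, 7 and 6 members were called in the 6 comparisons, beside 56.8%, 77.0%, 71.8%, 47.8%, 76.4% and 41.0% of all genes, and it changed no member's call. Same-numbered deviations correlated at a mean of 0.145, against -0.0269 for other numbers, with 13 of 36 pairs under 0.1. With only the 2 groups compared in the fit, Cdh1 had no value for AU-15330 against DMSO or for the combination against AU-15330. Depth limits Cdh1 with AU-15330 and Twist1 in every group.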
